A study of Homo sapiens with 3 samples.

Results

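The genes described here are 10 genes of terminal keratinocyte differentiation, chosen by name from the 29689 genes of the table. They are the cornified envelope precursors IVL, FLG, LOR, CRCT1, LCE3D, CNFN and SBSN, the transglutaminases TGM1 and TGM3, and the protease inhibitor A2ML1. All 10 were listed above an FPKM of 0 in every tumor. Their RNA was measured in xenograft tumors of SUM-149, a triple-negative breast cancer (TNBC) cell line, grown in mammary fat pads of female Nu/Nu mice. There was 1 tumor library each for vehicle (Vehicle), the CDK2 inhibitor dinaciclib (CDK2i) and the EZH2 inhibitor EPZ6438 (EZH2i). The drugs were given for 10 days, and the time is not stated for Vehicle. For SUM-149 xenografts the study elsewhere names GSK343 as the EZH2i, so the drug behind the EZH2i library was taken from its label. Nu/Nu mice lack T cells, all tumors come from 1 cell line, and the sources used here do not give whether tumors were pooled or mouse reads removed. With 1 library a group there is no replicate check on any difference below and no p-value. In whole tumors, fewer cells of a type and less RNA per cell cannot be told apart.

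Cornification is the last step in the life of a squamous epithelial cell. Basal cells leave the cell cycle, spinous cells make differentiation keratins, and granular cells then lay down a cornified envelope under the plasma membrane. Transglutaminases cross-link precursor proteins into this envelope while lipids are attached to its outside, and many of the precursors are encoded in a gene cluster on chromosome 1, the epidermal differentiation complex. Mammary epithelium does not normally cornify, but basal-like breast tumors can show squamous differentiation.

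Promoters of 6 of the 10 genes, picked after their values were seen, are shown as examples of start regions with different motifs. A link between motif and response was not tested. Each line gives the 150 bases before the annotated start, 5′ to 3′ in the direction of the gene, read from GRCh37. Capitals mark matches to the AP-1 motif TGANTCA and to the TATA box TATAAA.
CRCT1, chr1:152486808-152486957, plus strand: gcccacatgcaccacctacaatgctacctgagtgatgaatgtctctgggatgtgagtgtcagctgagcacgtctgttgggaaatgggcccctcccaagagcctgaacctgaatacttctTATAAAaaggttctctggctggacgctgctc
LCE3D, chr1:152552993-152553142, minus strand: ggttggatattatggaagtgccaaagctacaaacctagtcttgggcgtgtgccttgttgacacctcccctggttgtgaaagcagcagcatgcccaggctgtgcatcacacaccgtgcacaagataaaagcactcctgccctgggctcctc
IVL, chr1:152880872-152881021, plus strand: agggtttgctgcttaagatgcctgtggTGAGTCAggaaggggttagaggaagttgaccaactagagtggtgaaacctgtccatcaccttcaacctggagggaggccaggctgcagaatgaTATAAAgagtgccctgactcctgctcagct
SBSN, chr19:36019214-36019363, minus strand: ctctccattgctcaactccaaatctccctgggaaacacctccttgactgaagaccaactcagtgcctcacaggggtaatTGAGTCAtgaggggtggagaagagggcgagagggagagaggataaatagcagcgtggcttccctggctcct
FLG, chr1:152297716-152297865, minus strand: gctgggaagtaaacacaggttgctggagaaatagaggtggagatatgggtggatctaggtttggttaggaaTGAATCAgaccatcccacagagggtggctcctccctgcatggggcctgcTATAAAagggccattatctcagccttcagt
LOR, chr1:153232013-153232162, plus strand: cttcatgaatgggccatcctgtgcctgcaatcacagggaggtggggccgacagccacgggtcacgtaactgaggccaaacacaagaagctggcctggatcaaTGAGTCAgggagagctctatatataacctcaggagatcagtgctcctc

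In a window of 250 bases before to 50 bases after the start, searched on both strands, the AP-1 motif was present in 4 of the 10 promoters, those of IVL, FLG, LOR and SBSN. It was present in 5.40% of the 18921 protein-coding promoters scanned. The TATA box letters were present in 5 of 10, those of IVL, FLG, CRCT1, TGM3 and A2ML1, against 9.44% of all promoters. The KLF motif CACCC, which is common, was in 7 of 10 and in 63.8% of all, and the grainyhead-like motif AACCNGTT was in 0 of 10 and 1.49% of all. The AP-1 matches thus lay both before genes with high RNA levels (SBSN) and before genes near the detection limit (FLG and LOR, below). Such matches describe the letters only and are not evidence of factor binding.

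At low levels the values moved in steps of 1 fragment, which put the depth of Vehicle at 16.8 M (megafragments), that of CDK2i at 19.1 M and that of EZH2i at 17.5 M. Of the 1262 to 1425 low genes used for this, 84.2% to 85.9% lay within 0.1 of a whole fragment. Fragment numbers of single genes were recovered with exon lengths of the GENCODE 44 annotation and are approximate. Intervals below are 95% exact intervals on these numbers and cover counting error only, since fragments copied by PCR are not independent and tumors differ. The tumors carried RNA of epithelial carcinoma markers, with KRT14 at 2458 to 6269 FPKM and EPCAM at 66.3 to 81.0 FPKM. KRT19 was at 485 to 1144 FPKM and KRT8 at 121 to 200 FPKM. KRT18, which the study used as a luminal marker, was at 29.6 to 42.1 FPKM. ESR1 was at 0.792 to 1.10 FPKM. PGR was listed at 0 in Vehicle and rested on 1 fragment in CDK2i and 1 in EZH2i.

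In the CDK2i tumor 6 of the 10 genes were higher than in Vehicle by more than 2-fold with the higher value above log2 FPKM 3 (8 FPKM), the study's fold and expression thresholds. They were CRCT1, LCE3D, SBSN, A2ML1, IVL and CNFN. A seventh, TGM1, was at the edge of the fold threshold. None was past the thresholds in the lower direction. Of all genes that reached the expression minimum in that pair, 3.27% were called higher and 8.07% lower. In the EZH2i tumor 3 of the 10, CRCT1, LCE3D and A2ML1, were called higher and 0 lower, against 8.93% and 4.42% of all genes. The expression minimum was met by 7 of the 10 in the CDK2i pair and by 6 in the EZH2i pair. The log2 difference over all 10 genes, those below the minimum included, had a median of 1.80 for CDK2i and 0.70 for EZH2i. Over only the 7 and 6 of them above the minimum, the medians were 1.88 and 1.02. Over all 6630 and 7414 genes of the table above the minimum, the medians were −0.04 and 0.15. Both comparisons use the same Vehicle library.

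**Figure D1:**
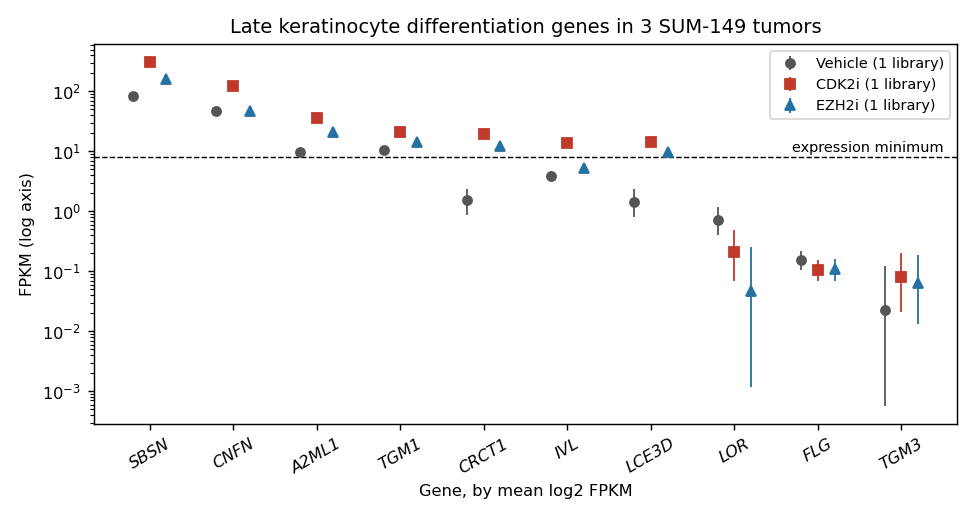
FPKM on a log axis of the 10 genes in the Vehicle (circles), CDK2i (squares) and EZH2i (triangles) libraries, 1 library each, with 95% exact Poisson intervals of the recovered fragments. SBSN and CNFN sit at 47.1 FPKM or more in every tumor, while LOR, FLG and TGM3 sit below 1 FPKM in every tumor, far under the dashed expression minimum of 8 FPKM.

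The precursor genes spanned the widest range of levels. SBSN encodes suprabasin, a secreted protein of the suprabasal layers, and lies on chr19:36014269-36019253. Its level was 83.6 FPKM in the Vehicle tumor, 313 under CDK2i and 162 under EZH2i. SBSN was the highest of the 10 in each tumor and made up 52.6%, 57.9% and 59.5% of their summed FPKM. Its log2 difference from Vehicle was 1.91 in CDK2i (1.85 to 1.97) and 0.95 in EZH2i (0.89 to 1.02). The EZH2i value is just under the 2-fold threshold and passed it when the GC and length trend was removed (1.24) or the summed FPKM were made equal (1.19).

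CNFN encodes cornifelin, a small component of the envelope, and lies on chr19:42891171-42894449. The CDK2i tumor had 122 FPKM, and the Vehicle and EZH2i tumors had 47.1 each. Only the CDK2i tumor stood apart, by 1.37 (1.22 to 1.52), and the EZH2i difference was 0.00 (−0.18 to 0.18). That last value depended on the processing and was 0.69 with the GC and length trend removed. CNFN has a GC content of 61.9%.

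CRCT1, a cysteine-rich gene of the epidermal differentiation complex at chr1:152486958-152488484, had the largest increase of the 10 in both treated tumors. Vehicle had 1.53 FPKM (18 fragments), CDK2i 19.7 (271) and EZH2i 12.4 (156). The log2 differences were 3.69 (3.04 to 4.50) and 3.02 (2.35 to 3.85), or 12.9-fold and 8.09-fold. The promoter printed above for CRCT1 holds a TATA box and no AP-1 match.

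LCE3D encodes a late cornified envelope protein, made at the end of the programme, and lies nearby at chr1:152551857-152552992. Vehicle had 1.46 FPKM (15 fragments), CDK2i 14.6 (174) and EZH2i 9.77 (107). The differences were 3.32 (2.59 to 4.22) and 2.75 (1.99 to 3.66). In Vehicle the levels of CRCT1 (0.88 to 2.36 FPKM) and LCE3D (0.80 to 2.36 FPKM) overlapped within counting error, and both moved above the expression minimum in each treated tumor.

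IVL encodes involucrin, an early scaffold protein of the envelope, and lies on chr1:152881022-152884362. Vehicle had 3.96 FPKM, CDK2i 13.7 and EZH2i 5.36. The CDK2i tumor was 1.79 higher than Vehicle (1.52 to 2.06). In EZH2i the difference was 0.44 (0.12 to 0.76), under the fold threshold.

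FLG and LOR, the genes most closely tied to a mature stratum corneum, were near the detection limit in every tumor. FLG encodes profilaggrin, whose processed units bundle keratin filaments, and lies on chr1:152274641-152297715. Vehicle had 0.154 FPKM and each treated tumor 0.107, from 33, 26 and 24 fragments over a transcript of 12793 bases. The differences of −0.53 (−1.33 to 0.25) and −0.52 (−1.34 to 0.28) were within counting error.

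LOR encodes loricrin, the glycine-rich main protein of the epidermal envelope, and was annotated as LORICRIN at chr1:153232163-153234600. Vehicle had 0.726 FPKM, CDK2i 0.212 and EZH2i 0.0464, from 15, 5 and 1 fragments. The ratio to Vehicle was 0.292 in CDK2i (−1.77 on the log2 scale, −3.59 to −0.24) and 0.0639 in EZH2i (−3.97, −9.36 to −1.27). LOR was highest in Vehicle, unlike CRCT1 and LCE3D, at levels far under the expression minimum, and the treated tumors did not differ from each other beyond counting error (−7.76 to 0.97).

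The cross-linking enzymes differed in level by orders of magnitude. TGM1, the membrane-anchored transglutaminase of keratinocytes at chr14:24718320-24733638, had 10.5 FPKM in the Vehicle tumor, 20.9 under CDK2i and 14.3 under EZH2i. Its differences were 0.99 (0.86 to 1.12) and 0.44 (0.29 to 0.58). The CDK2i value was past the 2-fold threshold with the libraries centred on the median gene (1.16), with equal summed FPKM (1.14) and with the trend removed (1.15). TGM3, a transglutaminase activated by proteolysis, at chr20:2276647-2321725, rested on 1 fragment in Vehicle, 4 in CDK2i and 3 in EZH2i. At that depth no difference was detectable, and the CDK2i interval ran from −1.53 to 7.43.

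A2ML1 encodes a protease inhibitor of the alpha-macroglobulin family secreted in the granular layer, and lies on chr12:8975217-9039597. Vehicle had 9.87 FPKM, CDK2i 36.4 and EZH2i 20.9. The differences were 1.88 (1.79 to 1.98) and 1.08 (0.98 to 1.18). A2ML1 was past the fold threshold in EZH2i with the deposited scaling, but at 0.87 after centring and 0.64 with the trend removed it was not. Its GC content of 49.1% is the lowest of the 10.

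**Figure D2:**
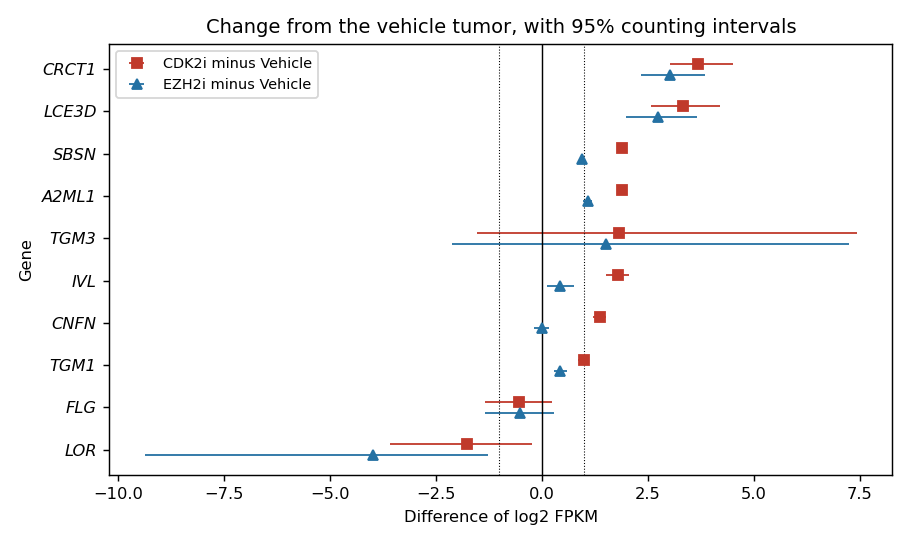
Difference of log2 FPKM from the Vehicle tumor for each gene in CDK2i (squares) and EZH2i (triangles), with 95% exact counting intervals as bars and the 2-fold threshold as dotted lines. From CRCT1 down to TGM1 every CDK2i point lies at 0.99 or above, the interval of TGM3 spans 0, and LOR lies below 0 in both.

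The treated tumors were also set against each other. Of the 10 genes, 9 had lower values in EZH2i than in CDK2i and FLG was at 0.01. The intervals of TGM3 (−3.06 to 2.28), LOR (−7.76 to 0.97) and FLG (−0.85 to 0.87) spanned 0, and FLG was at −0.37 after centring. The median difference was −0.73 over the 10 genes and 0.25 over all 7392 genes above the minimum. The share of all genes with lower values is not given here. Past the thresholds, IVL (−1.35, −1.59 to −1.12) and CNFN (−1.37, −1.52 to −1.22) were lower in EZH2i, and 0 genes were higher. Of all genes, 6.53% were called lower and 17.5% higher in that pair. With the libraries centred, 5 of the 10 were called lower. With the GC and length trend removed, CNFN (−0.84) was under the fold threshold and A2ML1 (−1.41) was past it. CRCT1 (−0.67, −0.96 to −0.38) and LCE3D (−0.58, −0.94 to −0.22) were closer between the treated tumors than to Vehicle. The order of the genes by FPKM also shifted. CRCT1 and LCE3D stood below IVL in Vehicle and above it in EZH2i. In CDK2i CRCT1 stood above IVL, while LCE3D (12.5 to 16.9 FPKM) and IVL (12.6 to 14.8 FPKM) overlapped within counting error.

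As a stand-in for replicate error, the SD of the EZH2i against CDK2i difference was taken over the 200 genes nearest in mean expression. It holds drug effects as well as noise, and the differences in that pair ran with transcript GC content (Spearman −0.458). This SD was 0.64 to 1.03 for the 7 genes from SBSN to LCE3D and 1.58 to 1.73 for LOR, FLG and TGM3. The CDK2i differences from Vehicle of SBSN, CNFN, A2ML1, TGM1, CRCT1, IVL and LCE3D were larger than this spread. In EZH2i those of CRCT1, LCE3D, SBSN and A2ML1 were. LOR in both tumors and TGM3 in CDK2i also exceeded it, on 15 fragments or fewer a library. The share of all genes that exceed their own spread is not given here, so these counts have no background. The differences in EZH2i ran with transcript GC content (Spearman −0.581) and length (0.489) across 10217 genes, which are not independent replicates, against 0.0329 and 0.0944 in CDK2i.

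On chromosome 1, 5 of the 10 genes lie between the start of FLG and the end of LOR, 152274641 to 153234600, together with 28 other protein-coding genes of the table. Of these 28, 14 were listed at 0 in Vehicle, 6 in CDK2i and 4 in EZH2i. Among the 14 late cornified envelope (LCE) genes, LCE3D held most of the RNA. The other 13 LCE genes summed to 3 fragments in Vehicle, 39 in CDK2i and 46 in EZH2i. LCE3A, named after its values were seen, was listed at 0 in Vehicle and rested on 10 fragments in CDK2i and 14 in EZH2i. LCE3E, also named afterwards, had 2, 21 and 11. LCE genes resemble each other, so fragments could have been split between them, and the same holds for the SPRR2 genes. The small proline-rich (SPRR) genes of the interval, further precursors, were 5 of 10 called higher in CDK2i and 2 of 10 in EZH2i. Of these 10, 5 met the expression minimum in the CDK2i pair and 4 in the EZH2i pair. SPRR1B was at 40.9, 190 and 34.3 FPKM, SPRR2D at 5.06, 34.5 and 14.3, and SPRR2E at 17.7, 61.6 and 33.8.

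**Figure D3:**
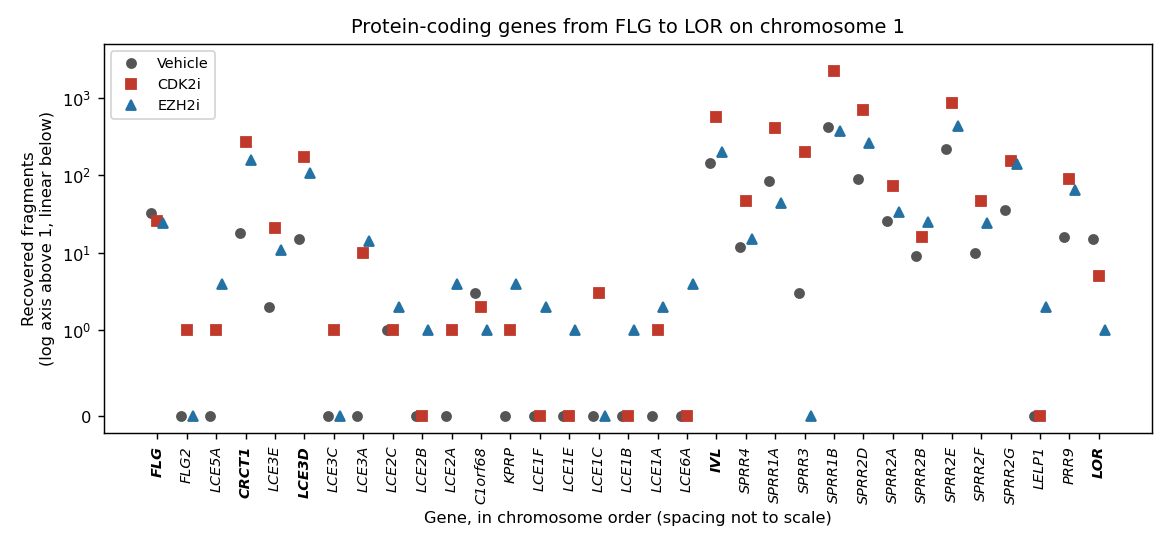
Recovered fragments (log axis above 1, linear below) of the 33 protein-coding genes from FLG to LOR in chromosome order, with the described genes in bold and 1 library per symbol. CRCT1 (18, 271 and 156 fragments), LCE3D (15, 174 and 107) and IVL (143, 563 and 202) stand above the LCE genes other than LCE3D, LCE3A and LCE3E, which lie at 0 to 4 fragments, and LOR has 15 fragments in Vehicle and 1 in EZH2i.

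Of 26 other envelope precursors found in the table, the other LCE genes among them, 5 reached the expression minimum in some tumor and 0 were called in either direction against Vehicle. PI3, an elastase inhibitor that is cross-linked into the envelope, was at 2630, 3753 and 1747 FPKM (Vehicle, CDK2i, EZH2i). CSTA, the cystatin A gene, was at 270, 232 and 140, and PPL, which encodes periplakin, at 43.0, 67.3 and 40.4. The median difference was 0.51 in CDK2i and −0.26 in EZH2i over the 9 genes above 0 in every tumor.

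Among enzymes and inhibitors that process the envelope, 4 of 17 were called higher in CDK2i, CASP14, KLK5, KLK7 and KLK14, and 0 lower. In EZH2i 0 were higher and 1, SPINK5, was lower. The expression minimum was met by 11 of the 17 in the CDK2i pair and by 8 in the EZH2i pair. Of the most abundant members, CAPN1, a calpain, was at 114, 196 and 97.7 FPKM. ST14, the matriptase gene, was at 82.5, 106 and 66.2 FPKM. SPINK5, an inhibitor of kallikrein proteases, was at 187, 148 and 58.4 FPKM. The list's median difference was 0.78 for CDK2i and −0.04 for EZH2i, the latter between −0.26 and 0.20 over the scalings. Genes of the epidermal lipid barrier showed 1 of 19 called higher in CDK2i, CYP4F22, and 0 called in EZH2i. Only 5 of the 19 met the expression minimum in the CDK2i pair and 4 in the EZH2i pair, so most could not be called. CYP4F22 was at 8.39 FPKM in CDK2i, just over the minimum, and its call was lost with equal summed FPKM without ribosomal protein and mitochondrial genes. ELOVL1, a fatty acid elongase, was at 101, 110 and 104 FPKM.

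Of the spinous layer genes, in EZH2i 6 of 11 were called lower and 2 higher. In CDK2i 3 were called higher and 0 lower. The expression minimum was met by 8 of the 11 in each pair. KRT10, a keratin of the spinous layer, was at 507, 510 and 42.5 FPKM. Its partner KRT1 was at 452, 842 and 131. LYPD3, a membrane protein of suprabasal cells, was at 261, 428 and 126. DSC1 and DSG1, desmosomal cadherins of the upper layers, were the genes called higher in EZH2i. With the trend removed, 3 were lower and 1 higher in EZH2i. The median was −1.16 with the deposited scaling and between −1.38 and −0.74 over the scalings. KRTDAP, DMKN and CALML5 were also called lower in EZH2i, at 281, 221 and 212 FPKM in Vehicle and 88.5, 98.8 and 76.4 in EZH2i. Thus, with the deposited scaling, CRCT1, LCE3D and A2ML1 were called higher in a tumor where 6 of the 11 spinous layer genes were called lower. The A2ML1 call was lost after centring and with the trend removed.

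Basal layer genes were called higher in 4 of 10 in CDK2i (KRT5, KRT14, ITGA6 and COL17A1), and in EZH2i 4 were called higher (TP63, ITGA6, ITGB1 and DST) and 1, KRT15, lower. Over the scalings the higher count in EZH2i was 1 to 5. KRT5 was at 1873, 4217 and 1653 FPKM, KRT14 at 2458, 6269 and 2541, and LAMB3, a laminin chain, at 273, 395 and 523. Among regulators of differentiation, OVOL1, NOTCH3 and HES1 were called higher and NOTCH1 lower in CDK2i. In EZH2i GRHL3 was called higher and MAF lower. Of the 18 regulators, 13 met the expression minimum in each of these pairs. NOTCH1 (−1.022), NOTCH3 (1.021) and MAF (−1.035) were at the edge of the fold threshold. OVOL1 was at log2 FPKM 3.011 in CDK2i, just over the minimum. With equal summed FPKM 0 regulators were called lower against Vehicle in either treated tumor, and after centring 0 in CDK2i. HES1, a Notch target, was at 81.0, 418 and 64.6 FPKM, NOTCH3 at 86.7, 176 and 66.7, and CEBPB at 251, 201 and 190.

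**Figure D4:**
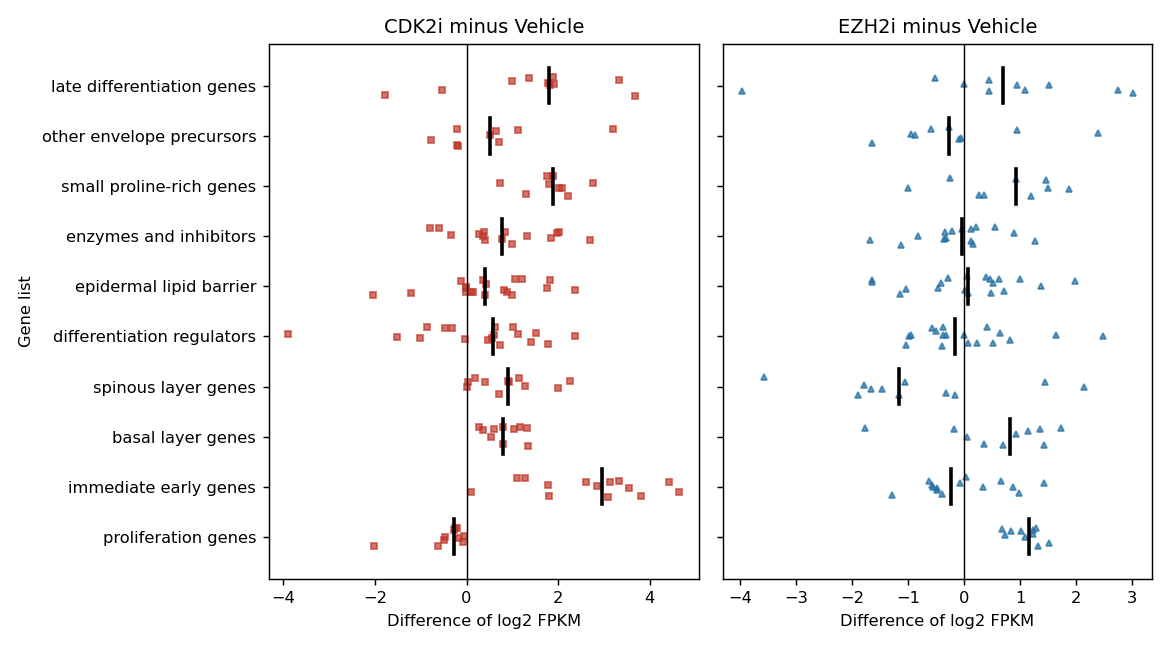
Difference of log2 FPKM from Vehicle for each gene (points) of the 10 late differentiation genes and 9 other lists, in CDK2i (left) and EZH2i (right), for genes above 0 in every tumor, with the median as a black bar. The late differentiation genes have medians of 1.80 and 0.70, the spinous layer genes 0.90 and −1.16, and the immediate early genes 2.97 and −0.24.

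Other gene groups differed between the tumors. Of 14 immediate early genes, 12 were called higher in CDK2i and 0 lower, and in EZH2i 1 was called higher (FOSL1) and 1 lower (EGR1), with summed levels of 565, 5058 and 629 FPKM. JUNB, an AP-1 subunit, was at 125, 1461 and 89.8 FPKM, EGR1 at 72.4, 440 and 29.6, and IER3 at 106, 1476 and 209. Of 10 proliferation genes, 0 were called higher and 1, AURKA, lower in CDK2i, and 7 higher in EZH2i. TOP2A was at 27.2, 22.7 and 66.1 FPKM, CCNB1 at 34.4, 22.3 and 69.8, and RRM2 at 26.3, 25.5 and 65.8. With the trend removed 0 of the 10 were called higher in EZH2i. The part of either group in the levels of the late differentiation genes was not tested. Markers of other cell types also differed, and their part was not tested. The values are of human genes and the host cells were mouse, so the sums below do not measure how many host cells were present. The 8 fibroblast markers summed to 24.5, 38.4 and 28.9 FPKM, LUM was called higher in CDK2i, and THY1 was listed at 0 in every tumor. The 8 leukocyte markers summed to 11.5, 11.2 and 5.52 FPKM, and CD14 was called lower in EZH2i. Most of these sums came from CD14 (8.02, 7.95 and 3.15 FPKM) and ITGAM (3.07, 2.97 and 1.94 FPKM). The 5 endothelial markers in the table summed to 0.7 to 0.9 FPKM. The 5 adipocyte markers summed to 34.9, 20.1 and 7.1 FPKM, of which FABP4 made up 32.6, 18.6 and 3.03 FPKM. FABP4 was called lower in EZH2i, where LPL was at 3.53 FPKM. ADIPOQ was listed at 0 in Vehicle and EZH2i and rested on 1 fragment in CDK2i. PTPRC rested on 6 fragments in Vehicle, 6 in CDK2i and 0 in EZH2i. Markers of skin-associated cells were near 0, with sums of 1.2 to 1.9 FPKM for 4 melanocyte genes and 1.2 to 3.8 FPKM for 5 hair follicle genes.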

How the data were processed

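RNAseq was performed by the study's sequencing provider on total RNA of SUM-149 xenograft tumors, with 1 library for Vehicle, CDK2i and EZH2i. The deposited values are log2 FPKM made by the authors on GRCh37/hg19. The submitters' processing notes name CASAVA and STAR without versions, and the study names GRCh37/hg19 as its annotation too. The annotation release, the counting tool and its use of strand are not given in the sources used here. A value of −9, taken as an FPKM of 0, was listed for 5624 to 5853 of 29689 genes.

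Differences of log2 FPKM were computed without a pseudocount. Calls needed a fold above 2 and at least 1 library of the pair above log2 FPKM 3. The study's limma p-value threshold needs replicates and was not applied. Depth was recovered from steps of 1 fragment in genes with 1 annotated transcript. Intervals are exact (Clopper-Pearson for differences, Poisson for levels, 95%). Gene positions, exon lengths, GC content and promoter starts (MANE Select) came from GENCODE 44 on GRCh37, matched for 68.5% of the genes and all 10 described here, 1 through an older symbol (LOR).

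The genes described, the surrounding lists and the rule for named genes were chosen with earlier results of these data known. That rule took all 10 genes, the 3 most abundant of each list and the 5 genes nearest in pattern. Genes named for being called fall outside it and were chosen after their values were seen. Calls and medians were recomputed at a 1.5-fold and a 3-fold threshold, with the minimum dropped or set to log2 FPKM 1 or 5, with 0.1 or 1 FPKM added, after centring each library on its median gene, after scaling libraries to the same FPKM total (also leaving out genes of ribosomal proteins and of the mitochondrial genome), and after removal of a degree 3 polynomial in GC content and length. Depth recovery, calls, trend removal and intervals were tested on simulated data. The simulation used the same exon lengths as the recovery, so it does not test the annotation. Its interval check used larger counts than those of TGM3, LOR, LCE3D and CRCT1 in Vehicle. Python 3.11.15, numpy 2.4.6, pandas 2.3.3, scipy 1.17.1 and matplotlib 3.10.9 were used. The result of 1 regulator gene is not reported here.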

Additional observations from a re-analysis of the deposited data

How the results depend on the processing

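No paired analysis was possible because each condition has 1 library. For the same reason no library could be left out. The deposited scaling gave median differences over expressed genes of −0.11 in CDK2i and 0.20 in EZH2i, and centring gave 0.06 and −0.02. The 6 genes called higher in CDK2i became 3 with an expression minimum of log2 FPKM 5, and the 3 in EZH2i became 0. Without an expression minimum 1 gene, LOR, was called lower in CDK2i and 1 in EZH2i. The 2 genes called lower in EZH2i than in CDK2i became 5 at a fold of 1.5, 0 at a fold of 3, 1 with the minimum of log2 FPKM 5, and 5 with the libraries centred. The median difference over the 10 genes was 1.99 in CDK2i with the GC and length trend removed, 0.94 in EZH2i with equal summed FPKM, and −1.12 between the treated tumors after centring. The EZH2i median of 0.70 was 0.43 with 0.1 FPKM added, 0.38 with 1 FPKM added and 0.48 after centring. Centring shifts every gene of a library by the same amount. Adding 0.1 FPKM moved genes near the detection limit most, such as TGM3 from 1.52 to 0.43 and LOR from −3.97 to −2.50 in EZH2i. No called gene changed sign in any alternative, and over the alternatives CRCT1 ran from 3.03 to 3.85 in CDK2i and from 2.40 to 3.68 in EZH2i. Depth limits TGM3, LOR and most LCE genes, whose differences rest on 15 fragments or fewer in a library.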

Other observations

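By the distance between pairs of differences (CDK2i and EZH2i, each against Vehicle), the genes nearest to the median pair of the 10 genes, 1.80 and 0.70, were SERPINB7, NELL2, CYP4F22, CASP14 and KRT6C. The comparison was made over 7565 other genes above log2 FPKM 3 in some tumor and rests on 3 libraries. The median pair includes LOR, FLG and TGM3, which were near the detection limit. Over the genes above the minimum it was 1.88 and 1.02. Its EZH2i value ran from 0.38 to 0.94 over the alternatives, and genes nearest to such other pairs are not given here. SERPINB7, a serpin, was at log2 FPKM 2.99, 4.78 and 3.66 in Vehicle, CDK2i and EZH2i. CASP14, the caspase of cornifying keratinocytes, was at 3.89, 5.73 and 4.44, CYP4F22, a fatty acid hydroxylase of ceramide synthesis, at 1.25, 3.07 and 1.87, and KRT6C, a keratin, at 5.93, 7.85 and 6.49. NELL2 was at 1.44, 3.21 and 2.11. In all, 18 genes lay within 0.5 of the median pair.

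Other genes of the chromosome 1 interval stood out and were named after their values were seen. SPRR3 rested on 3 fragments in Vehicle, 199 in CDK2i and 0 in EZH2i. Of the 10 SPRR genes it was the only gene listed at 0 in any tumor. PRR9, upstream of LOR in this interval, had 16, 91 and 65 fragments, higher than Vehicle by 2.33 in CDK2i and 1.96 in EZH2i, while LOR had 15, 5 and 1. The lipoxygenase genes ALOX12B and ALOXE3, whose products oxidise the lipids attached to the envelope, were below the expression minimum in every tumor. ALOX12B was at 0.857, 4.40 and 1.71 FPKM and ALOXE3 at 0.726, 2.44 and 1.88.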
